A study of Mus musculus with 10 samples.

Results

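Oncofetal genes are genes that are active in fetal liver, silent or nearly so in the adult organ, and active again in liver tumours. Here 7 of them were followed across a mouse model of hepatoblastoma, the commonest liver tumour of early childhood: Gpc3, Dusp9, Igsf1, Igf2bp3, Igf2bp1, Lin28b and Hmga2. The 7 genes were chosen by symbol from the 31053 genes in the tables, and each symbol matched 1 row. The measurement was Visium spatial transcriptomics, in which a frozen section is laid on a slide printed with barcoded spots, and each mRNA molecule caught on a spot is read through a short random tag, its unique molecular identifier (UMI). Each spot covers several cells or parts of cells, and its UMI count is therefore not that of a cell.

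The series held 10 sections of 7 mouse tissues, named NEJ146, NEJ634, NEJ723, NEJ687, NEJ638, NEJ654 and NEJ677. NEJ146 was cut into 4 adjacent sections, called replicates 1 to 4, and each of the other 6 tissues gave 1 section. GEO's labels call every tissue hepatoblastoma, say of NEJ146 alone that its section is from a tumour, and name neither the genotype nor the age of a single animal. The study's own text names NEJ146, NEJ634, NEJ723 and NEJ687 as tumours and counts 3 healthy livers without naming them, so NEJ638, NEJ654 and NEJ677 are called livers here by elimination. The tumours come from ABC-Myc mice, in which Alb-Cre removes a stop cassette and so lets human MYC be made from a CAG promoter in hepatocytes and their precursors. Because the labels do not give that assignment for all tissues, and because a tissue with 1 section has no replicate, the levels below are described by tissue and no difference between tissues was tested. NEJ146 also differs from the other tissues in its labels (total RNA against polyA RNA), in the software that its submitters name and in having no file of spot positions, and these differences cannot be told apart from a difference between tissues.

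The 7 proteins sit at different points of a fetal growth programme. Gpc3 (glypican 3) is a heparan sulfate proteoglycan anchored to the cell surface, used as a marker of liver cancer, and Igsf1 is a membrane glycoprotein of the immunoglobulin superfamily. Dusp9 is a dual-specificity phosphatase that acts on ERK kinases. Igf2bp1 and Igf2bp3 are related RNA-binding proteins that bind and stabilise mRNAs such as that of Igf2. Lin28b is an RNA-binding protein that blocks the maturation of let-7 microRNAs, and Hmga2 is a chromatin-bending protein whose mRNA is a classic let-7 target. In adult tissue let-7 is abundant and holds such mRNAs down, while in fetal liver Lin28b keeps let-7 low.

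The let-7 family ties several of these genes together, so its sequences are shown first, with the seed (bases 2 to 8, counted from the 5′ end) in capitals. The mature sequences are those of RefSeq for GRCm38.p6. All 9 let-7 5p microRNAs found there by name, miR-98 included, carried the same seed, and 4 of them stand below.
mmu-let-7a-5p: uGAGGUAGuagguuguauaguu
mmu-let-7c-5p: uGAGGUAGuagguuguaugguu
mmu-let-7g-5p: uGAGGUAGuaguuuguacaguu
mmu-miR-98-5p: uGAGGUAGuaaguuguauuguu
The letters that pair with this seed, CTACCTC, were looked for on the sense strand of the longest 3′ untranslated region of each gene in GENCODE M21. They were present in 9.02% of 21006 protein-coding genes and in 5 of the 7 oncofetal genes, and in 2 or more places in 1.08% of all genes and in 3 of the 7. Igf2bp1, Lin28b and Hmga2 had 4 matches each, Igf2bp3 and Igsf1 had 1 each, and Gpc3 and Dusp9 had none. Among genes whose untranslated region was of similar length (0.8 to 1.25 times; 604, 1357 and 2438 genes), at least as many matches were found in 0.331% for Igf2bp1, 0.295% for Lin28b and 0.123% for Hmga2. The match of Igsf1 lay in a short isoform whose region ends inside the longer gene.

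The 5 matches that are followed by an A, 1 for each of the 5 genes and the first such in its untranslated region, are printed 5′ to 3′ on the strand of the gene with 10 flanking bases on each side and the match in capitals, from GRCm38.
Igf2bp1 (chr11:95961768-95961795, minus strand): gcgaagtaaaCTACCTCAaggtgtgaag
Igf2bp3 (chr6:49086777-49086804, minus strand): ttttactcaaCTACCTCAggtattcagt
Lin28b (chr10:45381012-45381039, minus strand): ggcgggaagtCTACCTCAtgcaagcaca
Hmga2 (chr10:120364214-120364241, minus strand): cattcaatttCTACCTCAgcatcagttg
Igsf1 (chrX:49793039-49793066, minus strand): agaataatgcCTACCTCAcagggttgtt
Such a match is a description of the sequence, and no let-7 level was measured here.

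By position, 3 of the 7 genes lie on the X chromosome. In GRCm38 with GENCODE M21, Gpc3 spans chrX:52272426-52613950 (minus strand), Igsf1 chrX:49782536-49797749 (minus) and Dusp9 chrX:73639419-73643514 (plus). Igf2bp3 spans chr6:49085223-49214957, Igf2bp1 chr11:95957163-96005940, Lin28b chr10:45376620-45486395 and Hmga2 chr10:120361275-120476469, all on the minus strand. Igf2bp3 overlaps Malsu1, a mitochondrial ribosome factor on the opposite strand, whose level ran from 52.2 to 73.1 CPM over the 7 tissues. The promoter table of RefSeq (250 bases before to 50 after a start) held 5 of the 7 genes. The palindromic E-box CACGTG, the sequence that MYC and its partner MAX bind, was found in 2 of their 7 promoters (Igsf1 has 3), against 7.15% of all 32851 promoters. These windows are shown because the model is driven by MYC, with the E-box in capitals. Igf2bp3 had a further match in the same promoter. The Lin28b promoter in the table belongs to a start inside the span of the gene given above, not at its outer end. A match is not a binding site.
Igf2bp3 (chr6:49214962-49214987, minus strand): tgggattcctCACGTGagacgttgat
Lin28b (chr10:45470235-45470260, minus strand): ttgacagagtCACGTGtgctcagggg

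The sections were deep. Spots on tissue numbered 1890 to 4878 a section, with 39280329 to 117077925 UMIs in all and a median of 12133.5 to 28926.5 UMIs a spot. Levels (CPM) are the UMIs of a gene per 1000000 UMIs of the tissue spots, and bracketed ranges are exact Poisson 95% intervals that cover counting error only. This reading of the tissues was checked on markers. Afp, the fetal albumin, was at 2023 to 4248 CPM in NEJ146, NEJ634, NEJ723 and NEJ687 and at 3.79 to 9.63 CPM in NEJ638, NEJ654 and NEJ677. The sum of 12 mature hepatocyte markers was 10170 to 16680 CPM in the former and 70540 to 102900 CPM in the latter. In the 6 sections with a position file, 57.0% to 93.2% of the UMIs lay on tissue spots and the rest in spots off the tissue.

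Dusp9 gave the widest gap of the 7 between the lowest of the tumours and the highest of the livers. In NEJ146 it was at 65.5, 64.2, 66.7 and 68.3 CPM in replicates 1 to 4 (66.2 ± 1.75, SD, n = 4). It was at 125 CPM in NEJ634, 124 CPM in NEJ723 and 126 CPM in NEJ687, and at 0.254 CPM (13 UMIs) in NEJ638, 0.306 CPM (13 UMIs) in NEJ654 and 0.204 CPM (8 UMIs) in NEJ677. The 4 tissues named as tumours lay far above the 3 taken as livers, with no overlap, and NEJ634, NEJ723 and NEJ687 had overlapping intervals. The lowest of the former was 82.7-fold above the highest of the latter on the scale of CPM + 0.5, a log2 gap of 6.37 beside an SD of 0.04 over the NEJ146 sections.

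**Figure D1:**
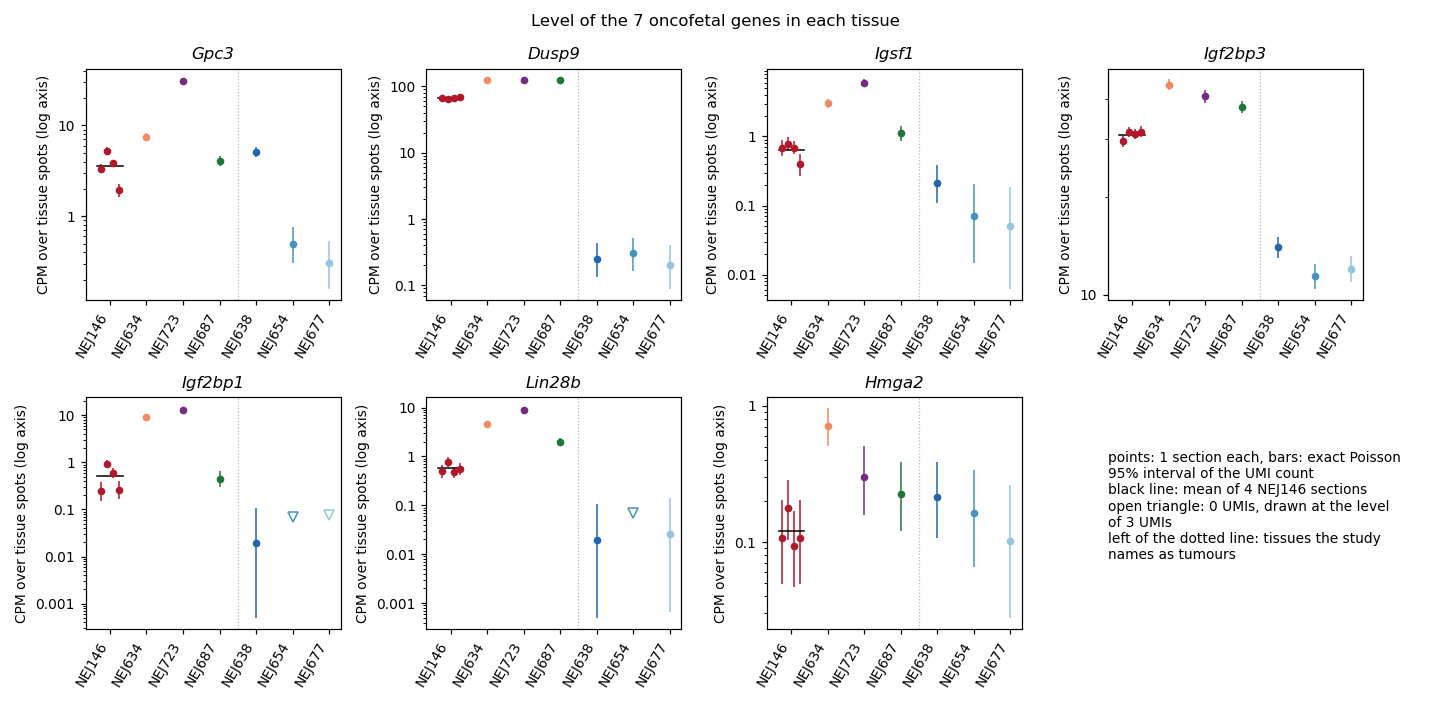
Level of each gene in each tissue in CPM over tissue spots, on a log axis. Points are sections with exact Poisson 95% intervals, the black line is the mean of the 4 NEJ146 sections, and an open triangle marks 0 UMIs, drawn at the level of 3 UMIs. Dusp9 and Igf2bp3 are higher in each of the 4 tissues left of the dotted line, which the study names as tumours, than in the 3 right of it, while Gpc3, Igsf1, Igf2bp1 and Lin28b are highest in NEJ723 and next in NEJ634.

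Among the RNA-binding proteins, Igf2bp3 was the one that the livers also held. Its level was 29.6, 31.7, 31.2 and 31.7 CPM in the NEJ146 sections (31.1 ± 0.985, SD, n = 4), 44.2 CPM in NEJ634, 40.7 CPM in NEJ723 and 37.8 CPM in NEJ687. NEJ638 was at 14.0 CPM, NEJ654 at 11.4 CPM and NEJ677 at 12.02 CPM, or 716, 484 and 472 UMIs. So the 2 sets of tissues did not overlap, and the gap was 2.18-fold (log2 1.12, SD over the NEJ146 sections 0.05). Malsu1, on the opposite strand, was at 52.2 to 60.4 CPM in the 3 livers, and its part in their Igf2bp3 count was not tested.

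Igf2bp1, its close relative, was nearly absent from the livers and split the tumours. It was at 0.2502, 0.931, 0.598 and 0.263 CPM in the NEJ146 sections (0.511 ± 0.324, SD, n = 4), 9.32 CPM (527 UMIs) in NEJ634, 13.2 CPM (576 UMIs) in NEJ723 and 0.453 CPM (26 UMIs) in NEJ687. NEJ638 held 1 UMI, and NEJ654 and NEJ677 held 0, which allows up to 0.0706 and 0.0764 CPM (3 UMIs). NEJ723 and NEJ634 stood far above the other tissues, and the range of the NEJ146 sections took in NEJ687. Over the 3 livers summed, 1 UMI in 132955375 gave 0.00752 CPM (0.00019 to 0.0419). NEJ723 was 1755 times that level, or 315 times the upper end of its interval, and NEJ687 was 60.2 times, or 10.8 times the upper end. On the CPM + 0.5 scale the gap was 1.83-fold (log2 0.87, SD 0.45), below the 2-fold line.

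Lin28b was also highest in NEJ723 and next in NEJ634. It was at 0.5004, 0.774, 0.470 and 0.562 CPM in the NEJ146 sections (0.577 ± 0.137, SD, n = 4), 4.58 CPM in NEJ634, 8.87 CPM in NEJ723 and 1.97 CPM in NEJ687. NEJ638 and NEJ677 held 1 UMI each and NEJ654 held 0, which allows up to 0.0706 CPM. No NEJ146 section came near the livers, and no neighbours in the order NEJ723, NEJ634, NEJ687, NEJ146 had overlapping ranges. The summed livers, with 2 UMIs, were at 0.015 CPM (0.00182 to 0.0543), and NEJ146 was 38.3 times that level, or 10.6 times the upper end of the interval. The gap was 2.05-fold on the CPM + 0.5 scale (log2 1.03, SD 0.18).

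The surface proteins were highest in the same pair of tumours, but Gpc3 did not set tumours apart from livers. Gpc3 was at 3.34, 5.27, 3.84 and 1.92 CPM in the NEJ146 sections (3.59 ± 1.38, SD, n = 4), 7.50 CPM in NEJ634, 30.6 CPM in NEJ723 and 4.06 CPM in NEJ687. NEJ638 was at 5.12 CPM (262 UMIs; 4.52 to 5.78), NEJ654 at 0.494 CPM (21 UMIs) and NEJ677 at 0.306 CPM (12 UMIs). NEJ638 thus lay among the tumours: below NEJ634, with an interval that overlapped that of NEJ687, and within the NEJ146 range. The gap was therefore negative (log2 -0.46, SD 0.52), and it was 2.04 with NEJ638 left out. In NEJ638 Gpc3 was spread thinly, in 243 of 3430 spots (7.09%; exact binomial 6.25% to 7.995%) with at most 3 UMIs in a spot, and its quadrants ran from 4.58 to 6.19 CPM with overlapping intervals. NEJ638 also held more Myc, here the mouse gene's row, at 39.0 CPM against 3.04 and 5.91 CPM in NEJ654 and NEJ677. That Myc level was above the 4 tumours as well, which were at 3.78 to 5.62 CPM. Its sum of the 10 proliferation markers was 162.6 CPM against 60.7 and 30.3 CPM in NEJ654 and NEJ677. The sums of stromal (731.3 against 409.9 and 296.8 CPM) and biliary markers (152.2 against 90.2 and 91.9 CPM) were higher there too. That of macrophage markers was lower (340.4 against 582.4 and 487.3 CPM). The part of these genes in its Gpc3 level was not tested.

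Igsf1 was at 0.691, 0.785, 0.692 and 0.394 CPM in the NEJ146 sections (0.641 ± 0.17, SD, n = 4), 3.01 CPM in NEJ634, 6.003 CPM in NEJ723 and 1.11 CPM in NEJ687. The livers held 11, 3 and 2 UMIs, or 0.215, 0.0706 and 0.0509 CPM in NEJ638, NEJ654 and NEJ677. The lowest NEJ146 section was above the upper end of the NEJ638 interval (0.385 CPM) by little. The gap was 1.60-fold (log2 0.67, SD 0.23), below the 2-fold line.

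Hmga2 was low, with 134 UMIs over all tissue spots. It was at 0.107, 0.178, 0.094 and 0.108 CPM in the NEJ146 sections (0.122 ± 0.038, SD, n = 4), 0.708 CPM (40 UMIs) in NEJ634, 0.298 CPM in NEJ723 and 0.226 CPM in NEJ687. The livers, at 0.215, 0.165 and 0.102 CPM, overlapped all of these but NEJ634. The interval of NEJ634 (0.505 to 0.963 CPM) met that of NEJ723, so among neighbours in the order no 2 tissues differed beyond their ranges. A difference of Hmga2 between the other tissues was not detectable at this depth.

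Of the 3 X-linked genes, Dusp9 was high in tumours with and without Xist, the RNA that coats an inactive X chromosome. Xist was at 38.9 and 63.9 CPM in NEJ146 and NEJ634 and at 0.0687 and 0.0522 CPM in NEJ723 and NEJ687. In the livers it was at 46.8 CPM in NEJ638, 49.5 CPM in NEJ654 and 0.0255 CPM in NEJ677. Dusp9 was at 66.2 CPM in NEJ146, 125 CPM in NEJ634, 124 CPM in NEJ723 and 126 CPM in NEJ687. Gpc3 and Igsf1 were highest in NEJ723 and lower in NEJ687, which both lacked Xist.

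Set against all genes, the 7 were not uniformly tumour-high. Of 15978 genes with at least 50 UMIs over all tissue spots, 7.90% had a lowest level in NEJ146, NEJ634, NEJ723 and NEJ687 that was at least 2-fold above the highest in NEJ638, NEJ654 and NEJ677. All 7 oncofetal genes passed the UMI minimum, and 3 of them (Dusp9, Igf2bp3 and Lin28b) were past that line. Their median log2 gap was 0.87, beside -0.17 over all genes tested. Which of the rare genes crossed the line turned on the pseudocount: with 0.1 CPM in place of 0.5 the count was 5, Igsf1 and Igf2bp1 being added, and with 1 CPM it was 2, Lin28b being lost (log2 gap 0.62). Lin28b also fell below the line over all barcodes (0.89) and without NEJ146 replicate 2 (0.94). As bulk levels of mixed spots, these numbers cannot tell fewer cells of a type from less RNA per cell.

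**Figure D2:**
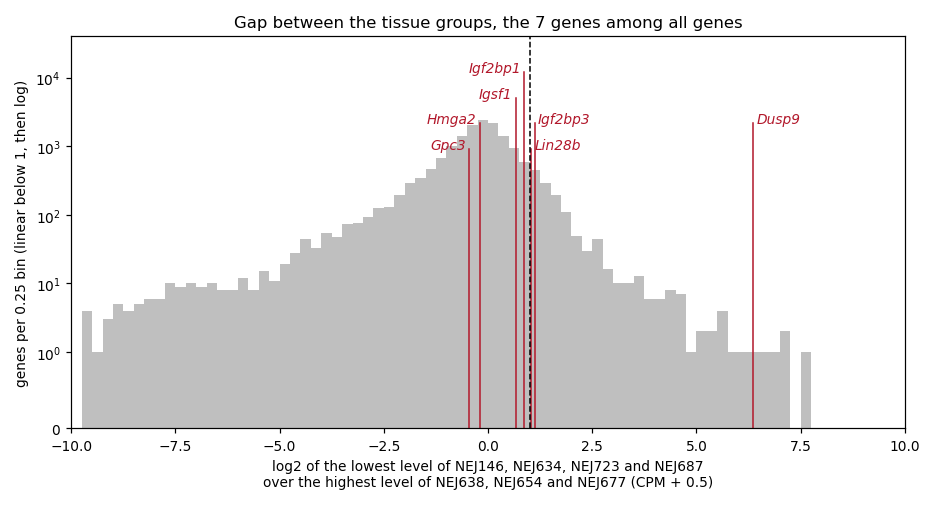
Number of genes (grey bars, 15978 genes) by the log2 of the lowest level in the 4 tissues named as tumours over the highest in the 3 taken as livers, with the 7 genes as red lines; the dashed line is the 2-fold line at 1. The count axis is linear below 1 and logarithmic above. Dusp9 lies at 6.37, and the other 6 lie between -0.46 and 1.12.

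Other cell types moved with the same split. All 8 neutrophil markers were past the line, and their sum was 428 to 1269 CPM in the 4 tissues against 18.7 to 40.6 CPM in the 3 livers. Of 8 erythroid markers 7 were past it, with a sum of 939.5 to 9518 CPM against 96.5 to 251.8 CPM, and Epb42 was at 0 in NEJ638, NEJ654 and NEJ677. All 10 proliferation markers were past it as well. Of 12 mature hepatocyte markers 6 were past it the other way, as were 3.49% of all genes tested. The sum of 8 endothelial markers was lower in the 4 tissues (111.7 to 220.9 CPM) than in the 3 livers (230.5 to 270.2 CPM), with no overlap. Of the 8, 0 were past the line the other way. Kdr, Clec4g and Eng were lower in each of the 4 tissues than in any liver, and the rest overlapped between the sets. The sums of stromal (296.8 to 1670 CPM), macrophage (340.4 to 1955 CPM) and biliary markers (88.4 to 649.5 CPM) overlapped between the sets. The part of these cell types in the levels of the 7 genes was not tested across tissues, and their relation to the genes within sections is given below.

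The study sets NEJ634 and NEJ723 apart from NEJ687 and NEJ146 as less differentiated tumours, and the oncofetal genes were read along that line too. Over all genes tested, 1.95% were at least 2-fold higher in both of the former than in either of the latter. Igf2bp1 (9.72-fold, log2 3.28), Igsf1 (2.17-fold, log2 1.12) and Lin28b (2.06-fold, log2 1.04) were past this line. With a pseudocount of 1 CPM the count fell from 3 to 1, Igf2bp1 being the gene left. Gpc3 was close below it (1.75-fold, log2 0.81), and Hmga2 (log2 0.14), Igf2bp3 (0.10) and Dusp9 (-0.01) were not. Gpc3 was itself among the marker genes by which the study drew this split, and the line was chosen with the levels of the 7 genes known, so these values are a description.

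Of 11 paralogs, 9 had 50 or more UMIs and 2 had a tumour-high gap past the line, the HMGA1 genes Hmga1 (log2 3.04) and Hmga1b (1.39), which are near-identical copies that can share reads. Their median gap was -0.26, beside -0.17 over all genes. Gpc4, the glypican gene beside Gpc3, was at 22.5 to 46.0 CPM in every tissue (log2 gap -0.78). Igf2bp2, the third member of its family, ran the other way, with 0.418 to 0.441 CPM in the 4 tumours and 1.08 to 1.66 CPM in the 3 livers. Dusp6, another ERK phosphatase, was at 7.26 to 14.4 CPM in the tumours and 16.7 to 45.7 CPM in the livers. Lin28a, the paralog of Lin28b, was low throughout (83 UMIs), at 0.481 CPM in NEJ723, 0.301 CPM in NEJ634, 0.157 CPM in NEJ687, 0.0936 CPM in NEJ146 and 0 to 0.0235 CPM in the livers. This is the order of Lin28b among the tumours, but it rests on few UMIs and no intervals were set beside it.

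Of 22 genes listed for the LIN28 and let-7 pathway, 20 were in the tables, 19 had 50 or more UMIs and 6 were past the tumour-high line, with a median gap of 0.39. They were Trim71 (log2 4.27), a ubiquitin ligase and let-7 target, Hmga1 (3.04), Arid3a (2.36), Ago2 (1.33), which carries microRNAs in the silencing complex, Drosha (1.22), which makes the first cut of a microRNA precursor, and Plagl2 (1.03). Zcchc11, the terminal uridylyltransferase that works with Lin28 on let-7 precursors, was at 24.1 CPM in NEJ146, 36.4 CPM in both NEJ634 and NEJ723, 20.1 CPM in NEJ687 and 11.2 to 20.4 CPM in the livers (log2 gap -0.02). Ccnd1, a cyclin and let-7 target, was lower in the tumours, at 4.42 to 20.2 CPM against 32.0 to 67.7 CPM.

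Of 12 further oncofetal genes, 11 had 50 or more UMIs and 7 were past the line, with a median gap of 4.27. These were Afp (log2 7.64), Igf2 (6.77), Bex1 (6.23), Dlk1 (5.37), Peg10 (4.32), Trim71 (4.27) and Sall4 (3.37). Epcam (log2 gap -1.11), Prom1 (-1.94), Meg3 (0.78) and H19 (-2.70), the imprinted RNA next to Igf2, were not past it. H19 was at 6062 ± 483 CPM (SD, n = 4) in NEJ146, 2872 CPM in NEJ634 and 9068 CPM in NEJ687. It was at 11.96 CPM in NEJ723, the tissue with the highest Gpc3, Igsf1, Igf2bp1 and Lin28b. The livers held H19 at 80.2 CPM in NEJ638, 6.31 CPM in NEJ654 and 4.86 CPM in NEJ677, so NEJ723 lay below NEJ638.

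The genes whose levels were most like each member's over the 7 tissues were found by Pearson's r of log2(CPM + 0.5), among genes with at least 5 CPM in 1 tissue. Over so few tissues many genes reach high values, and r is given as a description. Lin28b and Igsf1 were the most alike pair among the 7 (r = 0.989, equal to Dusp9 and Igf2bp3 at 0.989), and Igf2bp1 was close to Igsf1 (0.965) and Lin28b (0.944). The 3 nearest other genes were Acss1, Epb41l1 and Glipr2 for Dusp9 (0.999 each), Cox6a1, Cdc42ep1 and Nap1l1 for Igf2bp3 (0.998 to 0.9995), and Iqcb1, Prss16 and Exosc9 for Lin28b (0.997 to 0.999). For Igf2bp1 they were D930028M14Rik, F2rl1 and Snx4 (0.994 to 0.997), for Igsf1 1700110K17Rik, Pcgf2 and Trim32 (0.997 to 0.998), for Gpc3 Rab28, Sos2 and Bag5 (0.974 to 0.978), and for Hmga2 Adam19, Armcx2 and Fam174b (0.975 to 0.981).

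Within sections, the share of spots with a UMI set the genes apart in the same way. Dusp9 was found in 94.2% of the spots of NEJ634, 80.7% in NEJ723, 70.8% in NEJ687 and 65.6% to 72.6% in the NEJ146 sections, against 0.296% to 0.498% in the livers. Spots differ in depth, so each spot was also thinned to 5000 UMIs, leaving out 3 spots of NEJ634, 275 of NEJ723, 623 of NEJ687 and 180 to 454 in the livers. At that depth Dusp9 was in 46.2% (44.0% to 48.5%), 46.8% (44.6% to 48.9%) and 46.8% (45.2% to 48.4%) of spots in NEJ634, NEJ723 and NEJ687, and in 28.4% to 29.2% in NEJ146. The intervals of the 3 single-section tumours overlapped.

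Thinned to the same depth, Gpc3 was in 14.2% of the spots of NEJ723 (12.7% to 15.7%), 3.99% in NEJ634 (3.14% to 4.96%), 1.78% in NEJ687 and 0.936% to 2.45% in NEJ146, and in 2.46% in NEJ638 (1.96% to 3.05%). Igf2bp1 was in 6.62% of spots in NEJ723 and 5.19% in NEJ634, with overlapping intervals, and in 0.281% in NEJ687. As counted, Igf2bp1 was in 20.7% and 21.7% of the spots of these first 2 tissues, and in 0 of 2408 and 0 of 2699 spots of NEJ654 and NEJ677, which allows shares of up to 0.125% and 0.111%, taking 3 spots as the limit of a count of 0. Also as counted, at least 4 of the 7 genes were found in 13.7% of the spots of NEJ723, 8.78% in NEJ634, 0.247% in NEJ687 and 0.135% to 0.959% in the NEJ146 sections. These last shares rise with the level of each gene and the depth of the spots, and no expected share was set beside them.

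Whether the genes share spots beyond what their levels give was read from the number of spots with a UMI of both genes of a pair, over the number expected when each gene keeps its own number of positive spots and is otherwise spread in proportion to the UMIs of each spot. Summed over all 21 pairs the ratio over the 4 sections of NEJ146 was 1.01 ± 0.021 (SD, n = 4), and it was 0.981 for NEJ634, 1.01 for NEJ723 and 0.9998 for NEJ687. Dusp9 and Igf2bp3, the most widespread of the 7, shared spots at 0.989 ± 0.019 (SD, n = 4), 0.999, 0.995 and 0.992 times the expected number in these tissues. This pair made 5946 of the 8500 shared spots in NEJ146, 1260 of 3521 in NEJ634, 1074 of 4882 in NEJ723 and 1312 of 1897 in NEJ687. Dusp9 was in 94.2% of the spots of NEJ634, so its pairs could hardly exceed the expected number there. The sum over 21 pairs therefore weighs mostly the widespread genes and cannot show whether the rarer ones share spots.

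In NEJ146, Gpc3 shared more spots than expected with Igf2bp1, Igsf1 and Lin28b. Gpc3 and Igf2bp1 shared 66 spots over its 4 sections where 16.3 were expected, a ratio of 3.60 to 4.82 by section (4.04 ± 0.559, SD, n = 4). Gpc3 and Igsf1 shared 48 against 20.2 (1.35 to 3.71 by section, 2.52 ± 0.963), and Gpc3 and Lin28b shared 38 against 17.4 (1.74 to 3.65 by section, 2.44 ± 0.8697). With levels from summed UMIs the ratio of Gpc3 was 3.31 ± 0.442 with Igf2bp1, 2.28 ± 0.94 with Igsf1 and 2.22 ± 0.88 with Lin28b. Over the 6 pairs of Gpc3, Igsf1, Igf2bp1 and Lin28b, the ratio was 2.30, 2.49, 3.34 and 4.04 in replicates 1 to 4 (3.04 ± 0.804, SD, n = 4), above 1 in each, and with levels from summed UMIs it was 2.71 ± 0.801. The same 6 pairs gave 1.04 (0.927 to 1.17) in NEJ634, 1.10 (1.03 to 1.18) in NEJ723 and 1.15 (0.694 to 1.80, from 19 spots) in NEJ687. With summed UMIs they gave 0.923 in NEJ634, 1.045 (0.973 to 1.12) in NEJ723 and 1.11 in NEJ687. A spot with UMIs of several of these genes is counted in several pairs, so the bracketed intervals of this sum are too narrow. These 4 genes were grouped after their overlap was seen. Hmga2, the rarest of the 7, is not among them. Its pairs with these 4 genes had at most 1.85 expected shared spots in a NEJ146 section, too few to place it with them or apart. In NEJ146 its overlap was not above the expected number with Dusp9 (35 spots against 34.03), Igf2bp3 (27 against 23.94) or Dlk1 (12 against 12.15) beyond counting error.

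**Figure D3:**
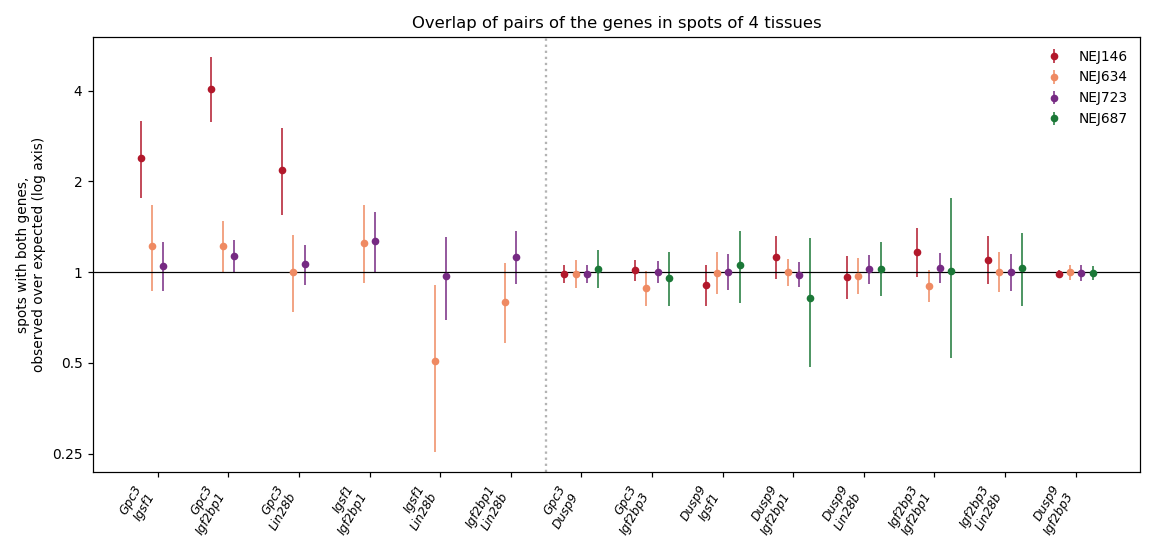
Spots with a UMI of both genes over the number expected, by pair and tissue, on a log axis, with exact Poisson 95% intervals; NEJ146 is summed over its 4 sections, and a pair is drawn where at least 10 shared spots were expected. Left of the dotted line, the pairs of Gpc3 with Igsf1, Igf2bp1 and Lin28b reach 2.18 to 4.06 in NEJ146, while pairs with Dusp9 or Igf2bp3 to the right lie near 1.

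In NEJ146, Igf2bp1, Gpc3, Igsf1 and Lin28b also shared spots with 2 markers of immature liver epithelium. Igf2bp1 shared 105 spots with Epcam, a surface protein of bile duct and progenitor cells, where 23.4 were expected, and the ratio ran from 3.45 to 8.03 over the 4 sections (5.81 ± 2.02, SD, n = 4). It shared 152 with Dlk1, a fetal hepatoblast marker, where 52.4 were expected, with ratios from 2.35 to 6.50 (4.01 ± 1.81). Gpc3 shared spots with Epcam at 2.34 ± 0.338 and with Dlk1 at 1.67 ± 0.238 times the expected number (SD, n = 4). Igsf1 was at 3.13 ± 1.48 with Epcam and 1.88 ± 0.449 with Dlk1, and Lin28b at 2.12 ± 1.05 and 1.86 ± 0.332. Dusp9 lay a little below with Epcam (0.876 ± 0.0505) and level with Dlk1 (1.02 ± 0.033). In NEJ634, Igf2bp1 shared spots with Epcam at 1.17 times the expected number (1.04 to 1.31). In the same tissue Igsf1 shared fewer spots with Lin28b than expected, 11 against 21.8 (0.506; 0.253 to 0.905). This pair was picked from many, with no adjustment for their number, and in NEJ723 it was at 0.967 (0.694 to 1.31). NEJ723 gave ratios near 1, at 0.992 with Epcam and 1.003 with Dlk1 for Gpc3, and 1.04 and 1.02 for Igf2bp1. Several ratios with Dlk1 and Epcam turned on how the expected number was set. With each gene's level taken from its summed UMIs, Gpc3 with Dlk1 in NEJ146 turned to 0.841 ± 0.182 (SD, n = 4) and Igf2bp1 with Epcam in NEJ634 to 0.838 (0.747 to 0.937). In NEJ146 that setting gave Dusp9 0.583 ± 0.0375 with Epcam and 0.537 ± 0.063 with Dlk1. Still above 1 in NEJ146 were Gpc3 with Epcam (1.47 ± 0.26) and Igf2bp1 with Epcam (3.68 ± 1.45, from 2.14 to 5.35) and Dlk1 (2.04 ± 1.05, from 1.17 to 3.47). So was Igsf1 with Epcam (2.18 ± 1.16, from 1.24 to 3.85). Lin28b with Epcam was at 1.43 ± 0.587, from 0.967 to 2.29. With Dlk1, Igsf1 was at 1.04 ± 0.316 and Lin28b at 1.02 ± 0.219.

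To place the genes beside cell types within a section, spots were ordered by their share of UMIs from a marker list, split into 3 classes, equal in size as far as spots without a marker UMI allowed, and the level of each gene in the upper class was set against that in the lower class. Values are log2 ratios of CPM + 0.5, and the brackets are exact intervals of the plain ratio of counts, which in NEJ146 are replaced by the SD over sections. A spot mixes cells, so a ratio describes areas of the section and not cells.

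Gpc3 was higher beside biliary and stromal markers in NEJ146 and NEJ634. In the upper biliary class (keratins, Spp1, Cldn7 and others) it was at 11.3 CPM against 4.23 CPM in the lower class of NEJ634 (log2 1.31; 1.05 to 1.79), and the ratio was 1.28 ± 0.32 in NEJ146 (SD, n = 4) and 0.37 (0.17 to 0.59) in NEJ723. By stromal markers (collagens, Dcn, Acta2 and others) it was 1.98 ± 0.15 in NEJ146, 1.35 (1.09 to 1.82) in NEJ634, 0.60 (0.16 to 1.22) in NEJ687 and 0.13 (-0.07 to 0.33) in NEJ723. NEJ723, with the highest Gpc3, had the stromal ratio nearest to 0 of the 4 tumours. In NEJ638 the same ratios were -0.11 (-0.63 to 0.37) and 0.17 (-0.25 to 0.63). The biliary classes were led by different genes in different tumours. Cldn7 made 300.2 of the 384.1 CPM of the list in NEJ723. Spp1 made 109.6 of 152.9 CPM in NEJ146, 350.6 of 649.5 CPM in NEJ634 and 68.1 of 88.4 CPM in NEJ687. Biliary ratios of NEJ723, here and below, therefore followed mostly Cldn7.

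By mature hepatocyte markers Gpc3 had opposite signs. It was at 4.11 CPM in the upper class and 1.52 CPM in the lower of NEJ146 (1.22 ± 0.39, SD, n = 4) and at 5.52 against 2.62 CPM in NEJ687 (0.95; 0.55 to 1.63), but at 4.68 against 11.3 CPM in NEJ634 (-1.19; -1.64 to -0.91) and 28.0 against 33.5 CPM in NEJ723 (-0.26; -0.46 to -0.06). The upper class was the deeper one in each tissue, at a median of 22440 against 18800 UMIs a spot in NEJ146 and 31900 against 25500 in NEJ634. The list was led by Alb, at 9564 of 15810 CPM in NEJ146 and 13130 of 16680 CPM in NEJ634. In NEJ723 Alb made 7839 of 10170 CPM and in NEJ687 8633 of 13690 CPM, and Cyp2e1 was at 1.21 CPM in NEJ723. These classes therefore followed mostly Alb and do not mark areas of mature hepatocytes.

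Igf2bp1, measured in this way in NEJ634 and NEJ723, had steep gradients in NEJ634. It was at 14.8 CPM in the upper biliary class and 3.02 CPM in the lower (2.12; 1.90 to 2.71), and at 15.1 against 5.32 CPM by proliferation markers (1.42; 1.17 to 1.84). By macrophage markers it was at 3.34 against 15.1 CPM (-2.02; -2.58 to -1.79) and by neutrophil markers at 4.80 against 13.2 CPM (-1.37; -1.82 to -1.12). In NEJ723, with a higher overall level, the same 4 ratios were 0.62 (0.33 to 0.97), 0.21 (-0.09 to 0.53), -0.28 (-0.62 to 0.03) and 0.01 (-0.30 to 0.33). Igsf1 was higher in the upper biliary class of NEJ146 (0.93 ± 0.22, SD, n = 4), NEJ634 (1.22; 0.86 to 2.08) and NEJ723 (0.70; 0.27 to 1.26).

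Dusp9 ran against Gpc3 in NEJ146. It was at 40.3 CPM in the upper mature hepatocyte class and 79.6 CPM in the lower (-0.98 ± 0.15, SD, n = 4), at 84.4 against 46.3 CPM by proliferation (0.86 ± 0.10) and at 54.0 against 77.7 CPM by stromal markers (-0.52 ± 0.14). In NEJ634, NEJ723 and NEJ687 its ratios to the same 3 lists lay between -0.26 and 0.34. Igf2bp3 was flatter still, with -0.49 ± 0.11 by mature hepatocyte and 0.48 ± 0.10 by proliferation markers in NEJ146 and -0.15 to 0.14 in the other 3 tumours.

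Lin28b was higher in the upper biliary class of NEJ723 (0.61, interval 0.26 to 1.03), while in NEJ634 the interval of its ratio took in 0 (-0.25, interval -0.73 to 0.17). In NEJ687 it was higher in the upper classes of mature hepatocyte (0.99; 0.49 to 2.14) and neutrophil markers (0.90; 0.38 to 2.01), from 81 and 71 UMIs. Hmga2 could be placed in NEJ634 alone, where 32 to 34 UMIs gave 1.59 (1.51 to 4.64) by biliary, 1.28 (0.93 to 3.47) by stromal and -1.23 (-3.57 to -0.87) by mature hepatocyte markers.

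**Figure D4:**
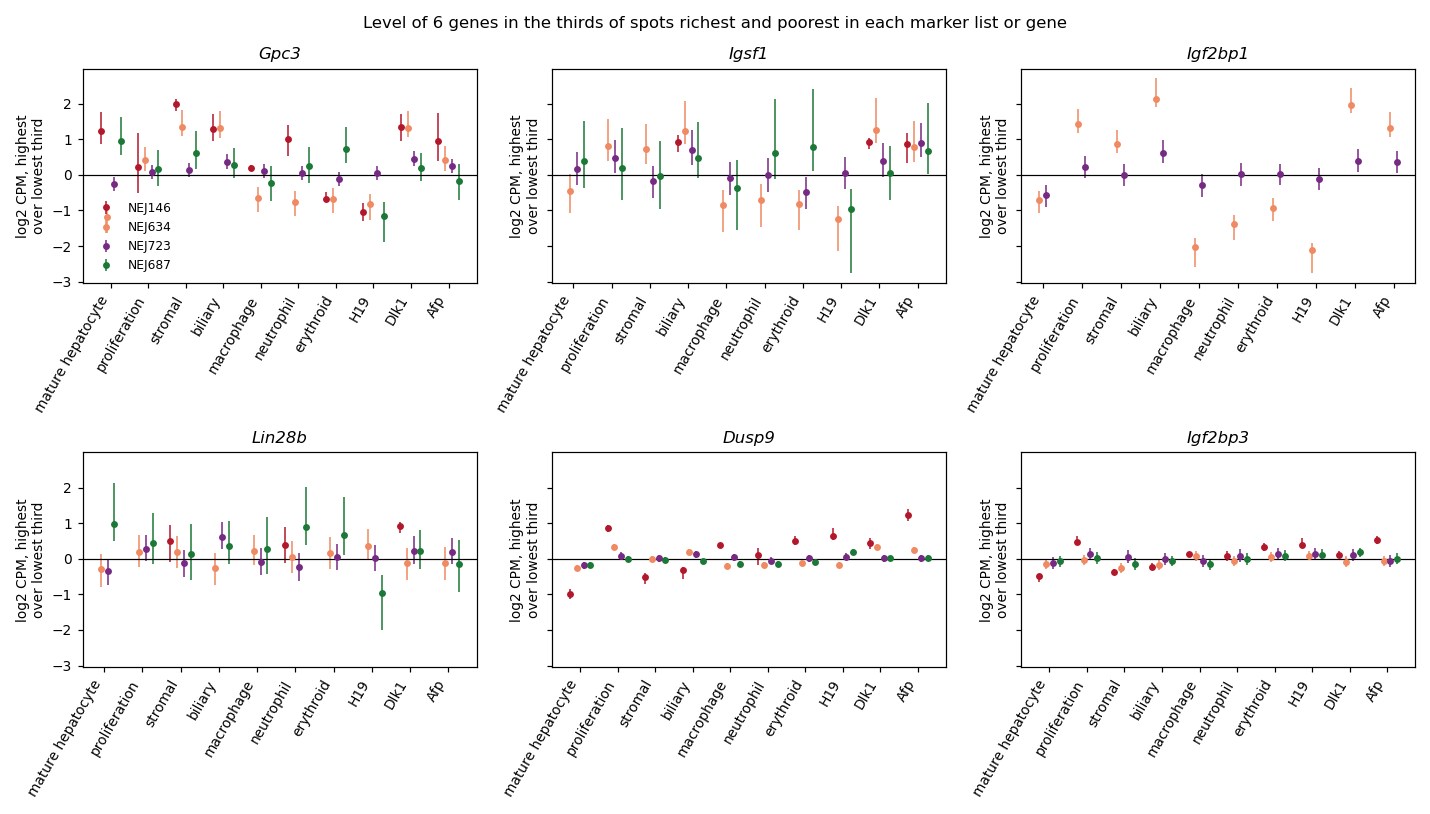
log2 ratio of the level (CPM + 0.5) in the upper over the lower class of spots by each marker list, or by 1 gene (H19, Dlk1, Afp), for 6 of the genes in 4 tissues. Bars are the range over the 4 sections for NEJ146 and exact intervals of the plain ratio for the others; Gpc3, Igsf1 and Igf2bp1 lie above 0 by biliary markers and Dlk1 and below 0 by H19 in NEJ634, and Dusp9 and Igf2bp3 stay close to 0 outside NEJ146.

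Ordering spots by 1 gene at a time, a choice made after the levels were seen, put Gpc3 where H19 was low in NEJ146, NEJ634 and NEJ687. By H19, Gpc3 was at 2.15 against 4.76 CPM in NEJ146 (-1.03 ± 0.23, SD, n = 4), 4.55 against 8.48 CPM in NEJ634 (-0.83; -1.27 to -0.53) and 2.26 against 5.61 CPM in NEJ687 (-1.15; -1.90 to -0.77). Igf2bp1 was at 2.66 against 13.3 CPM in NEJ634 (-2.12; -2.76 to -1.91). Igsf1 was at -1.23 (-2.14 to -0.88) in NEJ634 and -0.97 (-2.77 to -0.40) in NEJ687, and Lin28b at -0.96 (-2.01 to -0.47) in NEJ687 but 0.36 (-0.03 to 0.83) in NEJ634. Dusp9 was instead higher with H19 in NEJ146 (0.63 ± 0.15, SD, n = 4). In NEJ723, where H19 was at 11.96 CPM and 393 spots made up the high class, these ratios were between -0.11 and 0.06.

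By Dlk1, Gpc3 was at 12.1 against 4.51 CPM in NEJ634 (1.33; 1.06 to 1.80), while NEJ146 gave 1.34 ± 0.32 (SD, n = 4) and NEJ723 gave 0.44 (0.24 to 0.66). Igf2bp1 was at 17.9 against 4.21 CPM in NEJ634 (1.96; 1.73 to 2.45), and Lin28b at 0.92 ± 0.14 in NEJ146 but -0.12 (-0.59 to 0.31) in NEJ634. By Afp, Dusp9 was at 93.2 against 39.9 CPM in NEJ146 (1.22 ± 0.14), and Igsf1 was above 0 in all 4 tumours (0.68 to 0.90).

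The large-scale layout was read by cutting each section into 4 quadrants at the median row and column of its tissue spots. For NEJ146, which has no position file, rows and columns were those of the same barcodes on the other slides. Gpc3 differed 3.99-fold to 6.35-fold between the highest and lowest quadrant of the NEJ146 sections, with intervals that did not overlap, as at 10.9 against 1.90 CPM in replicate 2. In that replicate the bottom left quadrant was also the highest for Igf2bp1, with 75 of its 89 UMIs (3.11 CPM; 2.45 to 3.90) against 0 in the top left, which allows up to 0.123 CPM by its exact interval, and for Lin28b (1.91 against 0.291 CPM, 6.56-fold). In replicate 3 the bottom right quadrant was highest for Gpc3 (6.90 CPM), Igsf1 (0.998 CPM), Igf2bp1 (1.54 CPM) and Lin28b (1.05 CPM), while Dusp9 was highest in the top left (83.2 CPM). The highest quadrant was the same for Gpc3 and Dusp9 in replicate 2 and differed in replicates 1, 3 and 4.

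In NEJ634, Igf2bp1 was at 17.5 CPM (15.2 to 20.2) in the bottom left quadrant and 2.22 CPM (1.47 to 3.23) in the top left, a 7.89-fold difference. Gpc3 (2.05-fold), Igsf1 (2.76-fold) and Dusp9 (1.25-fold) had the same highest and lowest quadrants, whereas for Lin28b (5.43 against 3.81 CPM) the intervals overlapped and the top left was the highest. NEJ723 was even by comparison: for all 6 genes measured in its quadrants the intervals of the highest and lowest overlapped, with ratios of 1.06 to 1.28. In NEJ687, Igsf1 (3.08-fold) and Lin28b (2.42-fold) differed between quadrants beyond their intervals, and Gpc3 (1.59-fold) and Dusp9 (1.06-fold) did not.

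**Figure D5:**
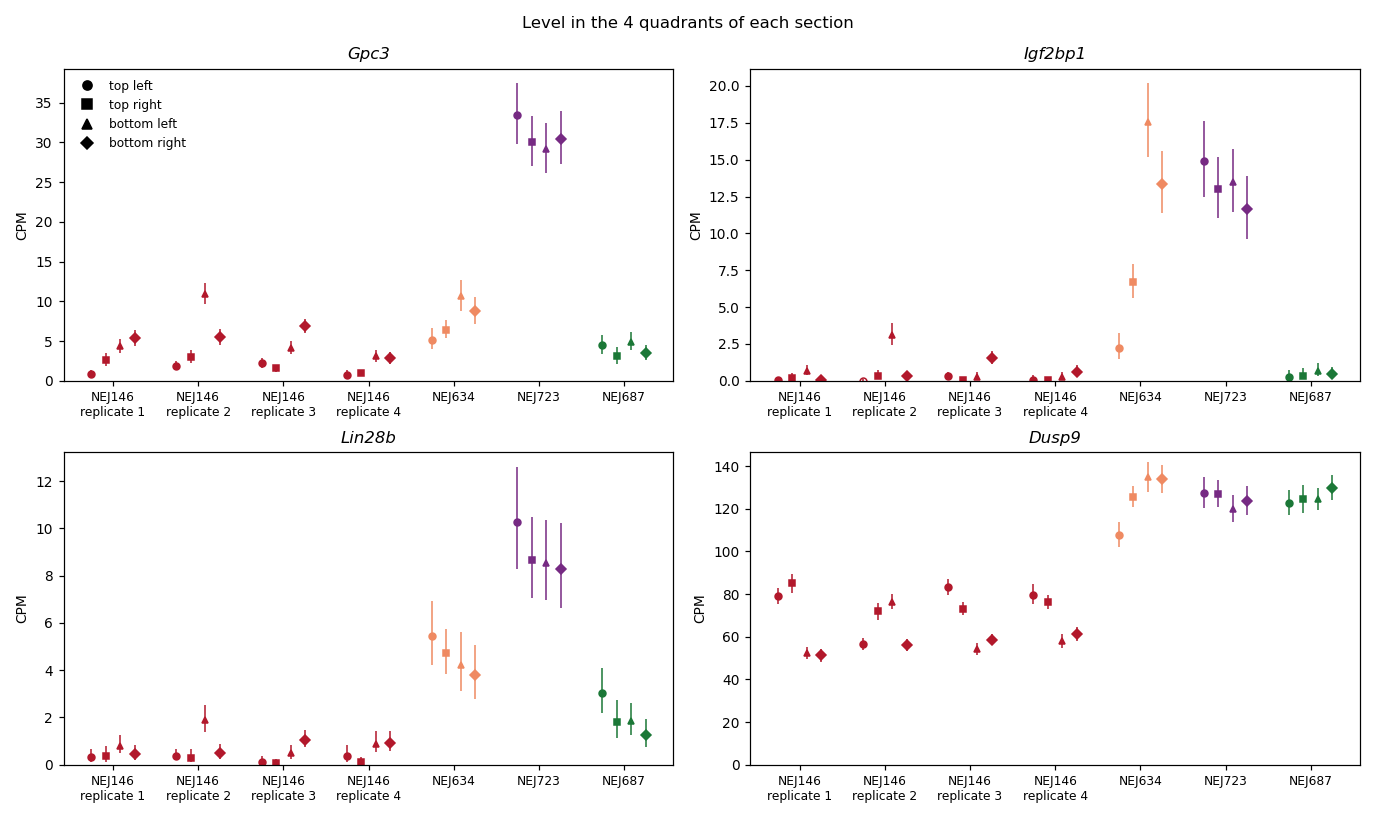
Level in CPM of Gpc3, Igf2bp1, Lin28b and Dusp9 in the 4 quadrants of the tumour sections, with exact Poisson 95% intervals. The highest and lowest quadrants differ for Gpc3 in each NEJ146 section and in NEJ634, and for Igf2bp1 in NEJ146 replicates 2 and 3 and in NEJ634 (2.22 to 17.5 CPM), while in NEJ723 the intervals of the highest and lowest quadrant overlap for each gene.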

How the data were processed

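Visium libraries from frozen sections were analysed from the UMI counts per gene and spot that the authors deposited, unnormalised. The submitters' processing notes name Cell Ranger 6.0 for NEJ146 and Space Ranger 1.3 for the other 6 tissues. Spots on tissue came from the deposited position files, and for NEJ146, which has none, were those with at least 8000 UMIs. This cut kept 4171 to 4878 of the 4992 spots of a NEJ146 section. It may have kept spots off the tissue, since off-tissue spots of NEJ634, NEJ638, NEJ654 and NEJ677 held medians of 10460 to 11895 UMIs. Counts were summed over tissue spots and divided by all their UMIs (CPM), with 0.5 CPM added before log2. No doublet caller was run, since spots are not cells. The 31053 rows were matched by symbol; a gene needed 50 UMIs over all tissue spots to be counted among genes tested. Each tissue was its own group, because the labels do not say for all which were tumours, and no test was made between tissues. The SD over the 4 adjacent NEJ146 sections covers sectioning and library preparation only. Intervals (exact Poisson for counts, exact Clopper-Pearson for shares) are 95% and cover counting error only.

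Named genes were the 7 members, the lists of companions, paralogs and LIN28 and let-7 genes, and the 3 genes most alike to each member. The members, lists and lines were chosen with earlier results of these data known. Ordering spots by single genes, including liver sections in the spot classes and grouping 4 genes in the overlap were added after values were seen. The expected overlap was set to keep each gene's number of positive spots, in place of levels from summed UMIs, which were kept as an alternative. In simulated data an independent pair was scored with the former setting only. Values from the alternative are given where it is named. Mature miRNAs and promoters were taken from RefSeq tables of GRCm38.p6, and gene models from GENCODE M21; the transcript letters were compared with the genome. Scripts used Python 3.11.15, numpy 2.4.6, scipy 1.17.1, pandas 2.3.3, matplotlib 3.10.9 and samtools 1.23.1, and the level, gap and overlap steps were tested on simulated data. Alternatives varied the spot threshold, the pseudocount, the mitochondrial and globin genes, the spot classes, the expected overlap and the tissues or sections left out.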

Additional observations from a re-analysis of the deposited data

Results flagged for a closer look

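Hmga2 in the NEJ146 sections had 1 value apart from the other 3: replicate 2 was at 0.178 CPM and the others at 0.094 to 0.108 CPM, a gap of 0.838 of the range, past the 95% critical value of Dixon, which chance passes in about 1 group in 20. The values rest on 9, 17, 11 and 9 UMIs in replicates 1 to 4. The interval of replicate 2 (0.104 to 0.285 CPM) overlapped those of the others, so it was not apart beyond counting error. Spots off the tissue, which the levels in the report leave out, also held these genes, at levels above the intervals of the off-tissue spots of the 3 livers in the cases given here. In NEJ634 these were Gpc3 at 11.1 CPM (7.50 on the tissue), Dusp9 at 109.7 (125.4), Igsf1 at 2.45 (3.01), Igf2bp3 at 52.1 (44.2), Igf2bp1 at 7.51 (9.32) and Lin28b at 3.31 (4.58). In NEJ723 they were Gpc3 at 37.7 CPM (30.6 on the tissue), Dusp9 at 121.9 (124.4), Igsf1 at 5.01 (6.003), Igf2bp3 at 51.4 (40.7), Igf2bp1 at 16.25 (13.2) and Lin28b at 7.53 (8.87), and in NEJ687 Dusp9 at 101.9 (125.5), Igf2bp3 at 40.96 (37.8) and Lin28b at 2.62 (1.97). Off-tissue spots there held a median of 10520.5, 7079 and 6659.5 UMIs.

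Some gradients had opposite signs in different tissues, and these differences were not tested. By mature hepatocyte markers the log2 ratio of Gpc3 was 1.22 in NEJ146 and -1.19 in NEJ634. By erythroid markers Gpc3 was at 0.73 in NEJ687 and -0.68 in NEJ146, and Igsf1 at 0.77 in NEJ687 and -0.83 in NEJ634. By neutrophil markers Gpc3 was at 1.01 in NEJ146 and -0.75 in NEJ634.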

How the results depend on the processing

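No paired analysis was possible because each tissue other than NEJ146 gave 1 section and replicate numbers name adjacent sections of 1 tissue. No gap past the 2-fold line changed sign, while below it that of Gpc3 turned from -0.46 to 2.04 without NEJ638 and that of Hmga2 from -0.20 to 0.02 without NEJ146. With a pseudocount of 0.1 CPM the gap was 7.35 for Dusp9, 1.23 for Igsf1, 2.21 for Igf2bp1, 2.43 for Lin28b and -0.51 for Hmga2, and 5 genes were past the 2-fold line. With 1 CPM it was 5.68, 0.43, 0.62 and -0.12 for Dusp9, Igsf1, Lin28b and Hmga2, and 1 gene was 2-fold higher in NEJ634 and NEJ723. Over all barcodes Dusp9 was at 6.14, and without mitochondrial and globin genes Dusp9 was at 6.47 and Igf2bp3 at 1.20. Leaving out a tissue and the overlap with levels from summed UMIs were chosen after seeing the data. Without NEJ146 the gap was 7.28 for Dusp9, 1.18 for Igsf1, 1.40 for Igf2bp3 and 2.23 for Lin28b. Without NEJ638 it was 1.0 for Igsf1, 1.33 for Igf2bp3 and -0.10 for Hmga2, and without NEJ654 it was 6.47 for Dusp9. The overlap over 21 pairs without spot totals was 1.07 in NEJ146, 1.18 in NEJ723 and 1.19 in NEJ687, and with levels from summed UMIs 0.948 in NEJ146 and 0.926 in NEJ634. Over the 6 pairs of Gpc3, Igsf1, Igf2bp1 and Lin28b it was 0.923 in NEJ634 with summed UMIs and 1.36 in NEJ723 without spot totals. The causes were not tested. Depth limits Hmga2 outside NEJ634 and Igf2bp1 and Lin28b in the livers.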
